A study of Homo sapiens with 2 samples.

Results

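The short arm of human chromosome 11 (11p) was examined gene by gene in a parental bronchial epithelial line and in a TRPV3-overexpressing derivative. The members were chosen by position, with a lowest start below 52000000 on chromosome 11 of GRCh38, and selected on depth, with at least 20 raw counts summed over both libraries. This selected 241 of the 1138 genes annotated on the arm and of the 13931 genes of the whole genome that reached the same depth. Another 139 genes of the arm had between 1 and 19 counts, and 758 had none. The arm was picked out with its lower expression in these libraries already known, so its level is given as a description and no test is attached to it.

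BEAS-2B is an immortalised line of human lung epithelium. The parental cells carried the WT genotype and were sequenced between passage 20 and 30, whereas the TRPV3-OE cells, which overexpress the calcium-permeable cation channel TRPV3, were sequenced between passage 4 and 8. Each group had 1 library, from cells harvested at confluence on the same coated plastic and in the same medium. Passage number and overexpression therefore cannot be told apart, the difference between the libraries has no replicate check, and how the overexpressing line was made is not given in the sources used here. In such bulk samples fewer cells of a type and less RNA per cell cannot be told apart.

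The short arm of chromosome 11 carries several gene neighbourhoods that are textbook examples of regional organisation. Near its tip lie the interferon-induced transmembrane genes, the gel-forming mucins, the fast-muscle troponins and a large imprinted domain, in which a gene is read from the maternal or the paternal copy. Further in lie a block of olfactory receptor and TRIM genes, the serum amyloid A genes, the PAX6 region and the cell surface genes CD59 and CD44. Within these clusters neighbours are often related genes, whereas many other neighbours on the arm share no function.

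Of the interferon-related genes described below, 6 had a promoter in the RefSeq table for GRCh38.p14, and 4 of these held the sequence GAAA, any 2 bases and GAAA again, the core spacing of an interferon-stimulated response element. These 4 promoters are shown because they hold this sequence. Their genes ran from far below to slightly above the level of the surrounding arm. Capitals mark each match. The IFITM1 (chr11:313940-314059, plus strand), IFITM3 (chr11:320841-320960, minus strand) and TRIM5 (chr11:5685055-5685174, minus strand) stretches run from 100 bases before to 20 bases after the annotated start. The TRIM21 stretch (chr11:4393664-4393693, minus strand) lies within the 50 bases after its start.
IFITM1: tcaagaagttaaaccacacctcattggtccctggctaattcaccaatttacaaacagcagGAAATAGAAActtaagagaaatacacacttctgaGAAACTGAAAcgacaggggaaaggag
IFITM3: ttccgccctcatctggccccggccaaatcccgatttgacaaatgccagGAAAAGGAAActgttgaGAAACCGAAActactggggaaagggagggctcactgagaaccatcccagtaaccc
TRIM5: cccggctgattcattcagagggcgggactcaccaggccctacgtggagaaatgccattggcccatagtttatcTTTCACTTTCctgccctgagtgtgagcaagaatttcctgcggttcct
TRIM21: tctgagcgGAAACTGAAAGTGAAAtaggga

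The IFITM1 and IFITM3 promoters each held 2 separate matches. TRIM5 held 1, read on the opposite strand, and TRIM21 held 2 that overlap, so that a GAAA is shared between them.

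Total gene counts were 17450658 in the parental and 17477953 in the TRPV3-OE library, and TRPV3 itself had 26 and 54077 counts, in the direction of the labels. All 7 epithelial markers were detected in both libraries and summed to 7522 and 7253 CPM (scaled counts per 1000000), while PTPRC and CD3E, which mark immune cells, were at 0 in both. The 3 endothelial markers summed to 16.7 CPM in parental and 3.26 CPM in TRPV3-OE cells, mostly through CDH5 (268 and 35 counts). PECAM1 ran the other way with 14 and 23 counts, and VWF had 4 and 0. The 4 fibroblast markers summed to 24.2 and 16.1 CPM, almost all COL1A1, with LUM at 0 in both. Ratios below are TRPV3-OE over parental after scaling for library size and composition, on the log2 scale, with exact 95% intervals that cover counting error only. The labels name no molecular identifiers, and copies made by PCR are not independent, so these intervals leave out part of the error.

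The members were mostly lower in the TRPV3-OE library. Their median log2 ratio was −0.66, a level 1.58-fold lower than in the parental library, with quartiles of −0.91 and −0.34. The ratio was below 0 for 204 of 241 members (84.6%). It was below 0 over the whole interval for 180 members and above 0 over the whole interval for 20, while the interval of 41 held 0. As shares these were 74.7% and 8.30%, beside 40.0% and 22.2% on the long arm (11q) and 34.7% and 31.9% of all genes. On the long arm (518 genes of the same depth) the median was −0.10 with quartiles of −0.36 and 0.21, and over all 13931 genes it was −0.01.

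The 54 members called at least 2-fold lower made up 22.4% of the arm, beside 6.76% of all genes by the same rule. A call required a ratio past 2-fold and an interval wholly on that side of 1. Calls at least 2-fold higher went to 9 members (3.73%), beside 7.85% of all genes. On the long arm 31 genes (5.98%) were called lower and 26 (5.02%) higher. Since the arm was chosen for this contrast, nothing is read from these shares.

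**Figure D1:**
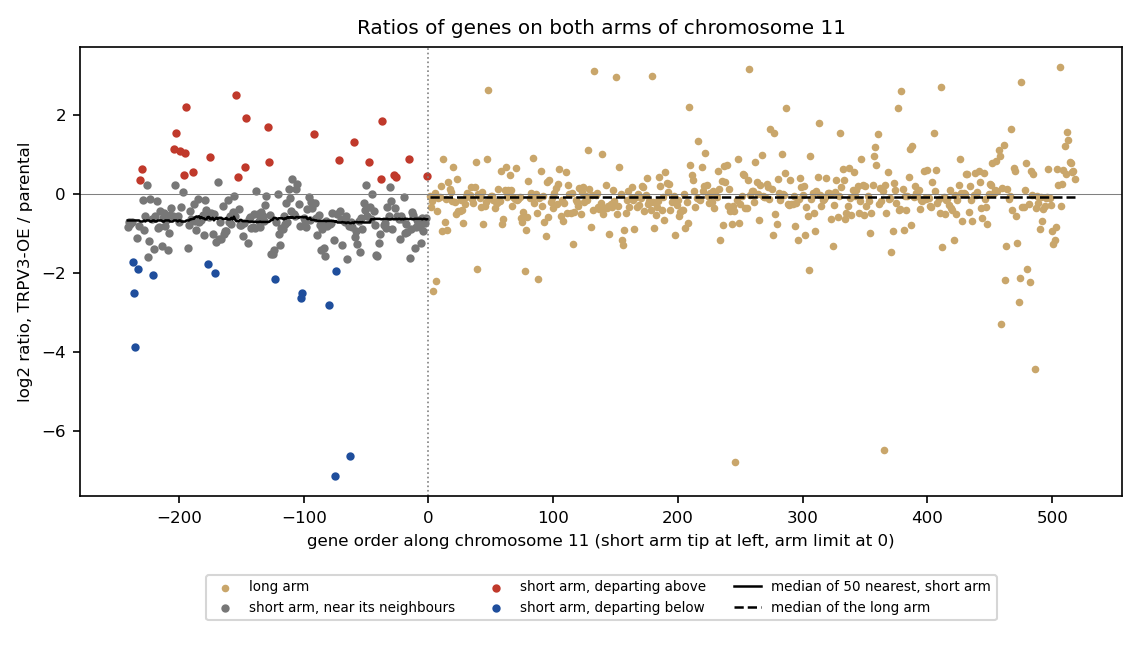
Log2 ratio (TRPV3-OE over parental) of each gene with at least 20 counts against its order along chromosome 11, from the tip of the short arm at the left, with the limit between the arms at 0. The black line (median of the 50 nearest genes) stays between −0.75 and −0.57 on the short arm, the dashed line marks the long arm median of −0.10, and the lowest blue points are PAX6 and LMO2, whose count of 0 was drawn as 0.5.

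The distribution of the short arm lay lower at each quantile examined, by less in its upper tail. The difference between the arms (11p minus 11q) was −0.66 at the 10th percentile, −0.55 at the lower quartile, −0.57 at the median and −0.55 at the upper quartile, but −0.32 at the 90th percentile. The spread of the arms was alike, with distances between the quartiles of 0.571 and 0.576. Of the 241 members, 154 (63.9%) lay within 0.5 of the median of their arm, a share close to that on the long arm (67.8%) and over all genes (61.6%). Summed over members, 312564 parental counts (1.79% of the library, exact binomial interval 1.785 to 1.797) stood against 203673 counts in the TRPV3-OE library (1.17%, interval 1.160 to 1.170). The log2 ratio of the scaled sums was −0.67 (−0.68 to −0.67) for the short arm and −0.15 for the long arm. The offset was thus of like size in a sum that weights genes by their counts and in a median that gives each gene equal weight.

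**Figure D2:**
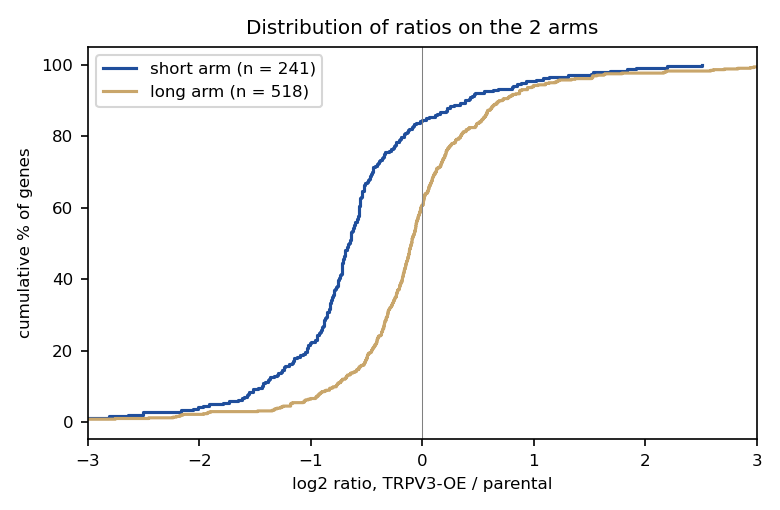
Cumulative percentage of genes (vertical axis) at or below a given log2 ratio (horizontal axis, TRPV3-OE over parental, shown between −3 and 3) for the 241 short-arm and 518 long-arm genes. The curves run side by side about 0.57 apart through their middle and draw together at the upper end, and 84.6% of the short-arm genes but 60.6% of the long-arm genes lie below 0.

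The lower level ran along the arm from tip to centromere. In steps of 5 Mb every median was below 0. The interval from the tip to 5 Mb held 66 members with a median of −0.64, and that from 45 to 50 Mb held 36 members with a median of −0.67. The highest medians, both −0.42, were those from 15 to 20 Mb (22 members) and from 35 to 40 Mb (9 members). The lowest was −1.14, from 25 to 30 Mb, where all 8 members were below 0 and 4 were called lower, among them BDNF, which encodes a neurotrophin (137 parental and 55 TRPV3-OE counts, −1.37). In steps of 2 Mb all 21 medians were below 0, from −1.37 to −0.19.

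The level differed between the sides of the limit that separates the arms. The last 10 members before the centromere had a median of −0.73 and the first 10 genes of the long arm one of −0.15. With 20 genes on each side the medians were −0.76 and −0.13, and with 50 they were −0.64 and −0.12. Just inside the limit lie NUP160, a nuclear pore subunit (start 47778087, 2014 and 1366 counts, −0.62), and PTPRJ, a receptor tyrosine phosphatase (start 47980558, 81 and 115 counts, 0.45). The first genes outside it are TNKS1BP1 (start 57299638, 2534 and 2547 counts, −0.05) and SSRP1 (start 57325985, 9019 and 7409 counts, −0.34). At the count minimum, MUC5AC (5 and 15) and AGBL2 (13 and 7) were just inside with 20 counts, and SOX6 (12 and 7) was just outside with 19.

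Among the autosomes and chromosome X, with chromosome 11 entered as its arms, the short arm had the lowest median of 24 units. Chromosome 4 followed at −0.44 and chromosome 16 at −0.32, and chromosome 20 was highest at 0.29. The other chromosomes were taken whole, so their arms were not set beside this one.

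Members below 0 were a larger share where counts were deep, while the offset from the long arm was alike at each depth. Of the 65 members with at least 2000 counts, 63 (96.9%) were below 0, with a median of −0.70 and a distance between the quartiles of 0.313. The exceptions are the adjacent genes SYT8 and TNNI2, described below. Of the 93 members with at least 500 but under 2000 counts, 86 (92.5%) were below 0, again with a median of −0.70. The share was 72% among the 50 members with at least 100 but under 500 counts (median −0.58) and 57.6% among the 33 with fewer (median −0.34). Over all genes the medians of these depth classes, from deep to shallow, were −0.04, −0.04, 0.00 and 0.18, so that shallow genes leaned upward across the genome as well. On the long arm they were −0.13, −0.11, −0.08 and 0.19, which puts the short arm at −0.57, −0.59, −0.50 and −0.54 relative to it.

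**Figure D3:**
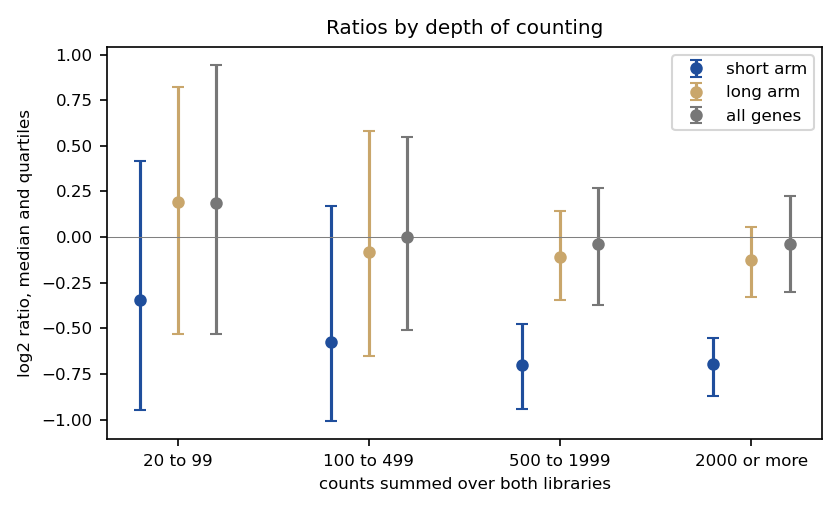
Median (point) and quartiles (bars) of the log2 ratio, TRPV3-OE over parental, in 4 classes of summed counts, for short-arm, long-arm and all genes. The short arm lies below the others in each class, with medians from −0.34 in the shallowest to −0.70 in the deepest.

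The strands did not separate the members, and the few members not annotated as protein-coding had a less lowered median but a wide spread. The median was −0.65 for the 127 members on the plus strand and −0.66 for the 114 on the minus strand. It was −0.66 for the 221 protein-coding members and −0.13 for the 20 others, which are not annotated as protein-coding. The quartiles of these 20 were −0.81 and 0.28. Of them 4 (20%) were called lower, beside 22.4% of the arm and 6.76% of all genes. Depth was not matched between the 2 classes. Of the 758 silent genes of the arm, 155 belong to the olfactory receptor family, the odour sensors of the nasal epithelium. The arm holds 156 such genes and pseudogenes by symbol, and the other one, the pseudogene OR7E14P, had 23 and 22 counts.

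The most abundant members sat at the level of the arm. LDHA, the muscle-type subunit of lactate dehydrogenase, had 26075 parental and 15222 TRPV3-OE counts (1522 and 855 CPM), a log2 ratio of −0.83 (−0.86 to −0.80). EIF4G2, a translation initiation factor, had 23479 and 14977 counts (−0.70, −0.73 to −0.68). Both intervals are narrow because of the depth, and both ratios differ little from the median of the 50 nearest genes, which was −0.59 for LDHA and −0.72 for EIF4G2. CAPRIN1, an RNA-binding protein of stress granules, had 8228 and 5198 counts (−0.72). The ribosomal proteins RPLP2 (11338 and 8426 counts, −0.48) and RPL27A (8406 and 6694 counts, −0.38) were somewhat less lowered.

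Genes that depart from their neighbours were sought against this local level. Each member was compared with the median of the 50 nearest genes of the arm that had at least 100 counts, itself left out, and it departed where it lay at least 1 log2 unit away with its interval wholly on that side. The local median varied little, from −0.75 to −0.57. By this rule 26 members (10.8%) lay above their neighbours, beside 7.83% of all genes, and 14 (5.81%) lay below, beside 5.28%. The rule of the arm used the same contrast, so neither share is read as a result about the members. The other 201 members did not depart. The choice of the arm fixes how the calls overlap: all 14 members below their neighbours were also called lower, but 40 of the 54 members called lower did not depart, and 17 of the 26 members above their neighbours were not called higher.

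**Figure D4:**
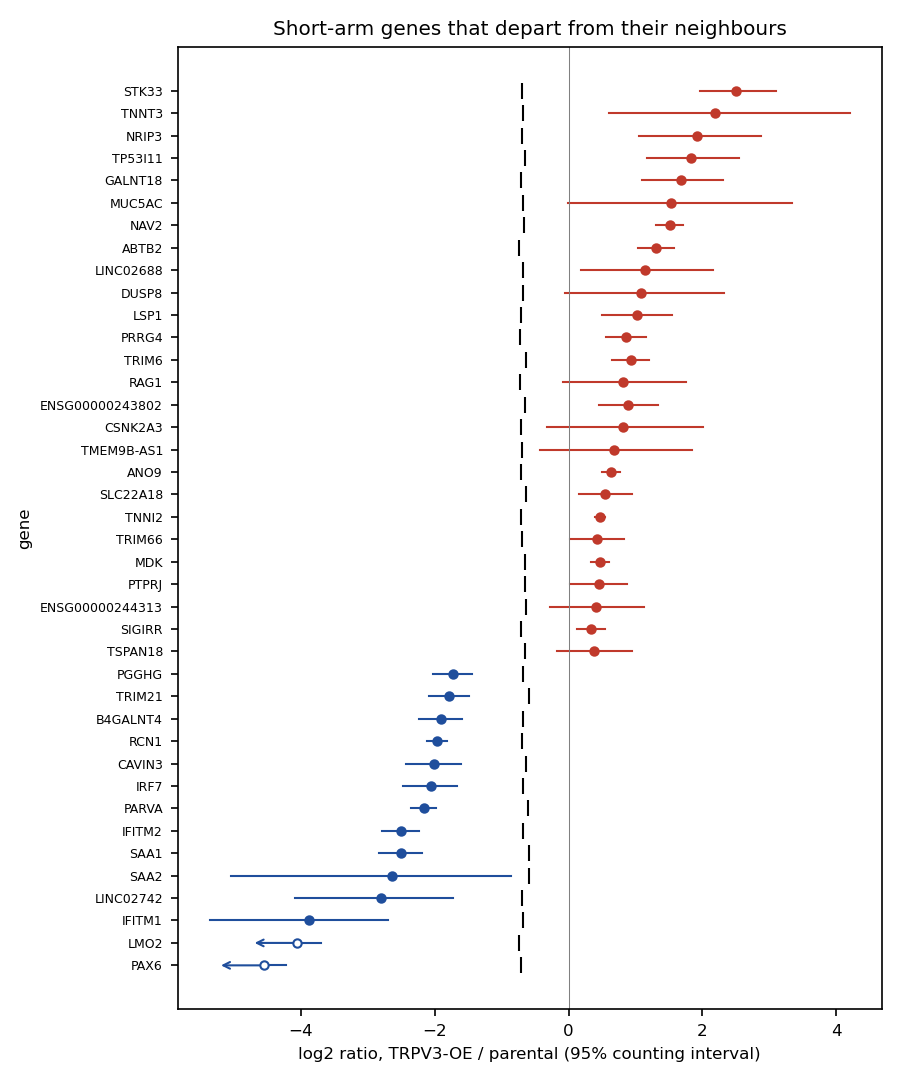
Log2 ratios (TRPV3-OE over parental) with exact 95% counting intervals for named members that depart above (red) and below (blue) the median of their 50 nearest genes, which is drawn as a black tick. STK33 at 2.51 and NAV2 at 1.51 lie farthest above among those with at least 200 counts, and open circles with arrows mark PAX6 and LMO2 at the bound that a count of 0 allows.

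STK33 stood farthest above its surroundings among members with at least 200 counts. It encodes a serine/threonine kinase and lies at 8391868 to 8594289 on the minus strand. Its counts were 32 in the parental and 189 in the TRPV3-OE library (1.87 and 10.6 CPM), 5.68-fold higher (2.51, 1.96 to 3.09) and 3.20 log2 units above its neighbours. The next gene on the same strand, TRIM66, had 91 and 127 counts (0.42, 0.02 to 0.83) and lay 1.12 above them. This pair forms a short run at or above 0 inside an otherwise lowered stretch.

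NAV2, a neuron navigator protein that acts on the cytoskeleton, was the most deeply counted member called higher. It had 277 and 821 counts (16.2 and 46.1 CPM), 2.85-fold higher (1.51, 1.31 to 1.71) and 2.17 above its neighbours. ABTB2, an ankyrin-repeat and BTB-domain protein, had 158 and 407 counts, 2.48-fold higher (1.31, 1.04 to 1.58), although it lies next to the lowered stretch around CD59 and CAPRIN1. PRRG4, a membrane protein with a Gla domain, had 140 and 263 counts (0.85) and lay 1.58 above its neighbours. All 3 were higher in the TRPV3-OE library while their surrounding medians lay between −0.75 and −0.66.

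Several other members departed by being only modestly higher. ANO9, a member of the anoctamin family of ion channels and lipid scramblases, had 707 and 1142 counts, 1.55-fold higher (0.64, 0.50 to 0.77). Its neighbour SIGIRR, a brake on interleukin 1 and toll-like receptor signalling, had 324 and 425 counts (0.34, 0.12 to 0.55). MDK, which encodes the heparin-binding growth factor midkine, had 713 and 1028 counts (0.47, 0.33 to 0.61). Against their neighbours these genes stood 1.34, 1.04 and 1.12 higher, so more of that distance comes from the lowered surroundings than from their own ratio. SLC22A18, a transporter of the imprinted domain, had 92 and 140 counts (0.55, 0.16 to 0.95).

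The longest run of members at or above 0 comprises 4 adjacent genes on the plus strand, SYT8, TNNI2, LSP1 and TNNT3, from 1828307 to 1938706. SYT8, a synaptotagmin, had 5829 and 6205 counts (0.03, −0.02 to 0.09) and stayed 0.74 above its neighbours, short of the limit. TNNI2, the fast-muscle inhibitory troponin, had 2245 and 3227 counts (131 and 181 CPM; 0.47, 0.39 to 0.55) and lay 1.17 above them. LSP1, an actin-binding protein of leukocytes, had 47 and 99 counts (1.02), and TNNT3, the fast-muscle troponin T, had 4 and 19 (2.19, 0.60 to 4.21). The whole run thus had ratios of 0.03 or more on an arm where the median is −0.66. SYT8, LSP1 and TNNT3 were singled out after their values were seen. CTSD, on the telomeric side of the run, was below 0 with 2406 and 1986 counts (−0.33), and 36.5% of its 50-base stretches occur in other genes.

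Shallower members called higher were also named after their values were seen, except TP53I11. NRIP3 had 14 and 55 counts, 3.78-fold higher (1.92, 1.05 to 2.88). TP53I11, named for its induction by p53, had 24 and 89 counts, 3.57-fold higher (1.83, 1.17 to 2.55). GALNT18, an enzyme family member for the first step of mucin-type O-glycosylation, had 32 and 107 counts, 3.22-fold higher (1.69, 1.10 to 2.30). The intervals of these 3 genes lie above 2-fold throughout, despite the low counts. Above their neighbours but on few counts were also the non-coding LINC02688 (14 and 32 counts, called higher) and TMEM9B-AS1 (12 and 20), the kinase subunit copy CSNK2A3 (11 and 20) and the unnamed genes ENSG00000243802 (66 and 127) and ENSG00000244313 (31 and 43). CSNK2A3 and ENSG00000244313 share 65.3% and 88.9% of their 50-base stretches with other genes, so their counts are uncertain. TSPAN18, which overlaps TP53I11 on the opposite strand, had 48 and 65 counts (0.38, −0.18 to 0.95).

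Of the 14 members below their neighbours, 4 are interferon-related and 3 of these lie near the tip. The IFITM genes encode small membrane proteins that hinder virus entry and are induced by interferon. IFITM2 had 733 parental and 134 TRPV3-OE counts (42.8 and 7.52 CPM), 5.69-fold lower (−2.51, −2.78 to −2.24) with a difference of −1.83 from its neighbours. IFITM1, singled out after its values were seen, had 85 and 6 counts, 14.7-fold lower (−3.88, −5.37 to −2.70). IFITM3 had 4820 and 2298 counts (281 and 129 CPM), 2.18-fold lower (−1.12, −1.20 to −1.05). The 3 genes were all called lower, but IFITM3 differed from its neighbours by −0.45 and did not depart. Their sequences are alike, with 34.1%, 32.0% and 17.4% of the 50-base stretches of IFITM2, IFITM1 and IFITM3 transcripts shared with other genes. The gene models of IFITM1 (313506 to 315272) and IFITM2 (307631 to 315272) also overlap on the plus strand. Reads that fall on both models are by default left out of both counts, so the values of both genes are uncertain.

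IRF7, a transcription factor that drives interferon production, had 257 and 64 counts, 4.18-fold lower (−2.06, −2.48 to −1.66). TRIM21, an antibody receptor and ubiquitin ligase of the cytosol, had 391 and 118 counts, 3.45-fold lower (−1.78, −2.09 to −1.48). Both departed from their neighbours, by −1.38 and −1.19. TRIM22, an antiviral ubiquitin ligase, had 220 and 112 counts (−1.03), and TRIM5, which recognises retroviral capsids, had 498 and 367 counts (−0.50). TRIM68 (206 and 143 counts, −0.58) was at the level of its neighbours. TRIM6 ran the other way, with 167 and 330 counts, 1.90-fold higher (0.93), and 25.9% of its 50-base stretches occur in other genes, so its value is uncertain.

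Of the 12 annotated genes of the interferon and antiviral list, 9 were members. Among these, 6 were called lower (5 without TRIM22 under each of the other 3 scalings) and none higher, 4 lay below and 1 above their neighbours, and the median log2 ratio was −1.12, or −0.45 after subtraction of the local level. Beside this and every later list count stand 22.4% of the arm and 6.76% of all genes called lower. For higher calls the shares were 3.73% and 7.85%. No list count is read as a result about its group. The share of promoters with the GAAA pair was 4 of 6 in this list, 10 of 179 (5.59%) over all members with a promoter in the table and 4.38% over all 27305 genes of the table. Beside the sequences shown above, the log2 ratios were −3.88 for IFITM1, −1.78 for TRIM21, −1.12 for IFITM3 and −0.50 for TRIM5. The first 3 have 2 matches each and TRIM5 has 1. The rest of the list had no match or no promoter in the table: IFITM2 (−2.51), IRF7 (−2.06), TRIM22 (−1.03), TRIM68 (−0.58) and TRIM6 (0.93). Whether the matches or their number bear on the ratios was not tested. Other members with a match have 1 each: SLC25A22 (−1.33), BTBD10 (−1.31), TRIM44 (−0.91), RRAS2 (−0.88), NUP160 (−0.62) and FNBP4 (1790 and 1107 counts). SLC25A22 and BTBD10 thus had lower ratios than IFITM3, which has 2 matches. A match describes these letters and shows no binding.

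The serum amyloid A genes were the other strongly lowered group. They encode acute-phase proteins that airway epithelium secretes in inflammation. SAA1, at 18266174 to 18269977, had 519 and 95 counts (30.3 and 5.33 CPM), 5.68-fold lower (−2.51, −2.84 to −2.19) with a difference of −1.91 from its neighbours. SAA2, singled out after its values were seen, had 18 and 3 counts (−2.64, −5.05 to −0.86). These genes share 46.6% and 20.5% of their 50-base stretches with other genes, so the values of each are uncertain. Among the 7 members of the innate signalling list, 3 were called lower (SAA1, SAA2 and CD59) and none higher, with a median of −0.57. TOLLIP (748 and 524 counts, −0.57) and TRAF6 (214 and 150 counts, −0.57), adaptors of toll-like receptor signalling, were near the level of the arm. SIGIRR and RAG1, a recombinase of lymphocytes (17 and 31 counts, 0.81), lay above their neighbours.

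Adhesion and cell surface genes ranged from well below the arm to above it. PARVA encodes alpha-parvin, which links integrin-linked kinase to actin at focal adhesions. It had 1324 and 307 counts (77.3 and 17.2 CPM), 4.48-fold lower (−2.16, −2.35 to −1.98) with a difference of −1.55 from its neighbours. Its partner ILK, the integrin-linked kinase, had 1679 and 905 counts (−0.95), a difference of −0.31 from its own. CD59, an inhibitor of the complement attack complex, had 5488 and 1813 counts, 3.15-fold lower (−1.65), and CD44, the hyaluronan receptor, had 6020 and 2256 counts, 2.77-fold lower (−1.47). Both were 2-fold calls but stayed within 1 log2 unit of their neighbours, with differences of −0.92 and −0.75. The tetraspanin CD151, a partner of laminin-binding integrins, had 4211 and 1619 counts, 2.70-fold lower (−1.44). Of the 13 members of this list, 5 were called lower and 1 (NAV2) higher, and the median was −0.83. The lower calls were 4 under the other 3 scalings, which left CD82, a tetraspanin (1283 and 653 counts, −1.03), just short of 2-fold.

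Among the secreted factors DKK3 had the most counts. This member of the dickkopf family of secreted glycoproteins had 1835 and 664 counts, 2.87-fold lower (−1.52, −1.65 to −1.39), a difference of −0.86 from its neighbours. With SAA1, SAA2 and BDNF it made up the 4 of 8 members of the ligand list called lower, while MDK lay above its neighbours, and the list median was −1.03. The other secreted products are the mucins. MUC5AC, the gel-forming mucin of airway goblet cells, had 5 and 15 counts (1.53, 0.00 to 3.34) and MUC2, the intestinal gel-forming mucin, 19 and 23 (0.22, −0.72 to 1.18). Neither was called higher or lower, although MUC5AC was called higher under the other 3 scalings and lay above its neighbours. The median of these 2 members was 0.87, or 0.56 with a prior count of 5.

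Transcription factors included the 2 members with no count in 1 library. PAX6, the eye and brain homeobox factor at 31784792 to 31817961 on the minus strand, had 68 parental and 0 TRPV3-OE counts, at least 23.6-fold lower when 3 counts are allowed in the TRPV3-OE library. LMO2, a LIM-domain bridging factor of blood and endothelial cells, had 48 and 0 counts, at least 16.6-fold lower. Both were singled out after their values were seen, and of the endothelial markers CDH5 and VWF were also lower and PECAM1 higher in the TRPV3-OE library. The part of other cell types in these values was not tested. Next to PAX6 on the opposite strand, RCN1, a calcium-binding protein of the endoplasmic reticulum, had 1656 and 440 counts, 3.91-fold lower (−1.97, −2.12 to −1.82) with a difference of −1.27 from its neighbours and 20.5% of its stretches shared. ELP4, a subunit of the elongator complex on the other side of PAX6 that was also singled out afterwards, had 287 and 133 counts (−1.17).

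Of the other factors, DEAF1 (612 and 239 counts, −1.41) was called lower, with a difference of −0.73 from its neighbours. TEAD1, the DNA-binding partner of YAP, had 1893 and 1195 counts (−0.72), ZNF143 had 435 and 254 (−0.83), and EHF, an epithelial ETS factor, had 274 and 148 (−0.94). Of the 10 members of this list, 3 were called lower and none higher, and the median was −0.78, also with PAX6 and LMO2 at their bounds. The clock genes BMAL1 (792 and 402 counts, −1.03) and CRY2 (184 and 104 counts, −0.88) were both below 0. BMAL1 was called lower, but not under the other 3 scalings (−0.99 to −0.98).

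Further members below their neighbours belong to no common group. CAVIN3, a coat protein of caveolae, had 252 and 65 counts, 4.03-fold lower (−2.01). B4GALNT4, a glycosyltransferase, had 384 and 106 counts, 3.77-fold lower (−1.91). PGGHG, a glucosidase of collagen-linked sugars, had 399 and 125 counts, 3.32-fold lower (−1.73). Their differences from neighbours were −1.37, −1.23 and −1.05. The non-coding LINC02742, chosen after its values were seen, had 54 and 8 counts (−2.81, −4.09 to −1.73). With IFITM1, IFITM2, SAA1, SAA2 and RCN1 left out for their shared sequence, 9 of the 14 members below their neighbours were left. DDB2, a damage sensor of nucleotide excision repair, came close to departing, with 632 and 214 counts, 3.07-fold lower (−1.62) with a difference of −0.98.

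**Figure D5:**
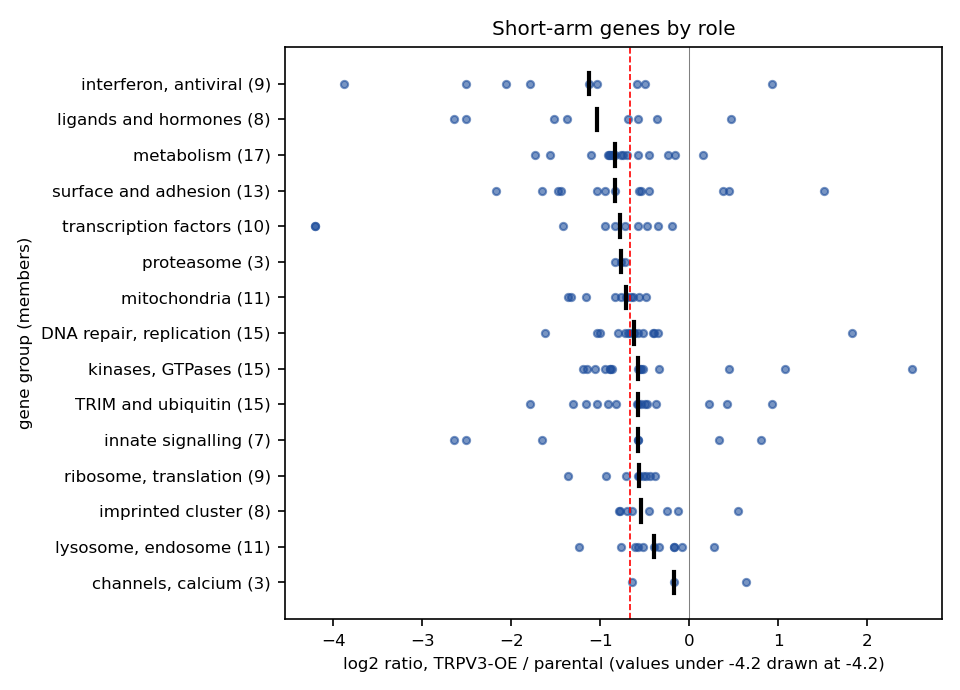
Log2 ratios (TRPV3-OE over parental) of members in the gene lists other than the mucin and clock lists, one point a gene. List medians are black bars, the arm median of −0.66 is a red dashed line and values under −4.2 are drawn at −4.2. The mucin list (median 0.87) and the clock list (median −0.96) are not drawn. The 3 proteasome members lie near the arm median, whereas interferon and surface genes spread widely.

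Housekeeping genes of the arm were mostly near its level, with some members called lower. The proteasome subunits PSMD13 (3070 and 1931 counts, −0.73), PSMA1 (1059 and 650, −0.76) and PSMC3 (4090 and 2383, −0.84) lay within a narrow range, and none of the 3 was called. The 9 ribosome and translation members were all below 0 with a median of −0.56, and 1, MRPL23, a mitochondrial ribosome subunit (114 and 46 counts, −1.37), was called lower. The 11 mitochondrial members were all below 0 with a median of −0.71. Of these, 3 were called lower: MRPL23, the glutamate carrier SLC25A22 (1520 and 630 counts, −1.33) and the import chaperone TIMM10B (646 and 301 counts, −1.16). Over the arm 22.4% of members were called lower, beside 6.76% of all genes.

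The 17 metabolism members had a median of −0.83, with 3 called lower, which were PGGHG, ACCS (94 and 33 counts, −1.57) and CAT, the hydrogen peroxide-degrading catalase (689 and 334 counts, −1.10). Among the 15 DNA repair, replication and cell cycle members the median was −0.62. DDB2, FANCF, a Fanconi anaemia protein (371 and 188 counts, −1.04), and POLR2L, an RNA polymerase subunit (2222 and 1155 counts), were called lower and TP53I11 higher. Under the other 3 scalings DDB2 was the 1 lower call left, with FANCF between −0.99 and −0.98 and POLR2L between −0.96 and −0.94. The 11 lysosome and endosome members had a median of −0.39, with 1 called lower, the acid sphingomyelinase SMPD1 (179 and 79 counts, −1.24). No member of these 3 lists other than PGGHG and TP53I11 departed from its neighbours.

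Among kinases, phosphatases and small-GTPase regulators, 3 of 15 members were called lower and 1, STK33, higher, with a median of −0.58. The lowered ones were RASSF7 (816 and 370 counts, −1.20), ARHGAP1, a GTPase-activating protein (1492 and 700, −1.15), and RHOG, a small GTPase (776 and 388, −1.06), whose call ended under upper-quartile scaling. STK33, PTPRJ and DUSP8 (10 and 22 counts) lay above their neighbours. The TRIM and ubiquitin list of 15 members had a median of −0.57, with 4 called lower (3 under the other 3 scalings). Beside TRIM21 and TRIM22 these were BTBD10 (769 and 323 counts, −1.31) and TRIM3 (240 and 112 counts, −1.16). The counts of both lists stand beside 22.4% of the arm and 6.76% of all genes called lower.

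The list of imprinted-domain genes had no called member. It leaves out other genes that lie between its members, such as TRIM21, which was called lower (−1.78). Of the 16 annotated genes of the list 8 were members, 7 of them below 0, with a median of −0.54. H19, a maternally expressed non-coding RNA, had 756 and 455 counts (−0.79, −0.96 to −0.62), and NAP1L4, a histone chaperone, had 3234 and 2076 (−0.70). TSSC4 had 581 and 388 counts (−0.64). These lay near the arm median, and SLC22A18 alone departed. Of the 13 annotated channel and calcium genes 3 were members, with a median of −0.17 and none called. STIM1, the calcium sensor of the endoplasmic reticulum that opens store-operated channels, had 474 and 439 counts (−0.17, −0.36 to 0.02), 0.48 above its neighbours, and ANO9 departed upward.

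Promoter sequence was also compared between departing and other members. Of 241 members, 179 had 1 or more promoters in the table, each from 250 bases before to 50 after the start, and a gene was counted if any of its promoters held the motif on either strand. The GAAA pair occurred in 2 of 6 members below their neighbours (IFITM1 and TRIM21), in 0 of 11 above and in 8 of 162 that did not depart. The E-box CAGGTG occurred in 54 members (30.2%), beside 24.1% of all genes, in 4 of 11 above (DUSP8, PRRG4, SIGIRR and TRIM66) and in 3 of 6 below (B4GALNT4, LINC02742 and PAX6). The AP-1 motif TGANTCA occurred in 14 members (7.82%), beside 9.37%, and the TATA box TATAAA in 11 (6.15%), beside 14.0%. Neither of these was present in the 17 departing members with a promoter. The 179 members have 296 promoters in the table, its 27305 genes have 35116, and those genes were not selected on counts. For each motif, the GAAA pair included, the shares of members and of all genes are thus not matched for promoter number or expression. With so few departing genes, these counts describe the promoters and give no comparison between them.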

How the data were processed

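RNA sequencing of 1 parental and 1 TRPV3-OE BEAS-2B library was available, grouped by genotype label. The deposited values are raw counts per gene, made by the authors with featureCounts 1.5.0-p3 (strand setting 2) and Ensembl 87 gene models of GRCh38.p7, per the file headers. These hold no option for multi-mapping or overlapping reads, which by default are left out. STAR and DESeq2 are named per the submitters' processing notes, without versions. For the library kit and the read length, the sources used here give nothing.

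TMM factors (0.981 and 1.02) came from edgeR 4.0.16 in R 4.3.3. No model was fitted. CPM is the count per 1000000 scaled counts, and 1 count is worth 0.0584 CPM (parental) or 0.0562 CPM (TRPV3-OE). Log2 ratios carry exact conditional binomial (Clopper-Pearson) 95% intervals, and a count of 0 entered as 0.5. The interval for a gene with evenly split counts is 2.84 log2 units wide at 20 summed counts, 1.19 at 100 and 0.256 at 2000. The calculation was tested on simulated data. Symbols came from a gene name table (235 of 241 members), biotypes and transcripts from GENCODE 29 (240 members), and promoters from RefSeq on GRCh38.p14, whose chromosome coordinates equal those of GRCh38.p7.

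The members, the 17 gene lists and the thresholds were chosen with earlier results of these data known. The lists together hold 136 members, 22 of them in 2 or more lists. Named genes are the first 10 members departing upward and the first 10 downward with at least 200 counts (9 qualified below), ranked by the bound of the interval, less the local median, that lies nearest to 0, the 5 most abundant, up to 4 of each list with at least 100 counts and the largest log2 ratios in size, and those at the limits of the rule. Also named by this rule, but not described above, were ADM (−0.69), AP2A2 (−0.57), ARFGAP2 (−0.76), CARS1 (−0.93) and EIF3F (−0.57). The same holds for HPS5 (−0.60), PTPMT1 (−0.83), RNH1 (−0.91) and ZNF215 (−0.77), and none of these genes was called. Genes named otherwise complete a run, a list's calls or a motif count and were chosen after their values were seen. Alternatives were other scalings, count minimums, fold limits, prior counts, bin sizes, neighbour sets, protein-coding genes alone and means. Tables were handled in Python 3.11.15 (pandas 2.3.3, numpy 2.4.6), intervals came from scipy 1.17.1 and plots from matplotlib 3.10.9. A marker that was checked is not reported here.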

Additional observations from a re-analysis of the deposited data

How the results depend on the processing

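The median log2 ratio of the short arm (−0.66) and its difference from the long arm (−0.57) kept their direction under every count minimum and prior count tried. Scaling by total counts, upper quartile or DESeq2 1.42.0 size factors shifted all ratios by at most 0.058 and left the short-arm median between −0.62 and −0.60. Since a scaling shifts all ratios alike, the difference between the arms and the departures from neighbours could not change with it. These scalings left 46 to 47 of 54 lower calls and made 10 to 11 higher calls instead of 9. BMAL1, CD82, CSTPP1, FANCF, POLR2L, RRP8 and TRIM22 lost their lower call under all 3, and RHOG under upper quartile. Counts moved further with depth and fold limit. With a minimum of 100 counts 17 members lay above and 9 below their neighbours. With 500 counts 2 were called higher and 33 lower, with 6 above and 6 below neighbours. A 1.5-fold limit gave 129 lower calls and 33 members below neighbours, and a 4-fold limit gave 2 higher, 10 lower, 8 above and 5 below. Without the 11 members that share over 20% of their 50-base stretches, an alternative chosen after seeing the data, 9 lay below. In 2 Mb steps the highest median was −0.19 instead of −0.42. Subtracting the local level turned the sign of 8 of 17 list medians, by construction: 0.14 for innate signalling, 0.11 for imprinted genes, 0.033 for DNA repair, 0.25 for lysosome, 0.088 for ribosome, 0.48 for channels, 0.10 for kinases and 0.14 for TRIM genes. A prior count of 5 put the median of the mucins at 0.56 instead of 0.87. Of 276 values of named genes under alternatives, 263 stayed within their counting interval, 13 moved past it, all in abundant genes under another scaling, and 0 changed sign. No paired analysis was possible because there is 1 library in each group, so leaving out a replicate was likewise impossible. Depth limits the 33 members with fewer than 100 counts most.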
